A study of Mus musculus with 8 samples.

Results

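The dystrophin glycoprotein complex was followed in the soleus, a calf muscle rich in slow fibres, through 8 genes chosen by symbol: Dmd, Utrn, Dag1, Sgca, Sgcb, Sgcd, Sgce and Sspn. All 8 were found among the 22880 counted genes, and all 8 passed the filter on low counts that kept 14001 genes for testing. The muscles came from 4 control males (Dnm2 +/+) and 4 Dnm2 +/K562E males, all 2 months old and on a C57BL/6 background (the J substrain by the methods of the study), the controls being littermates or mice of the same age. The mutant mice carry the K562E point mutation on 1 of the 2 Dnm2 alleles in every cell, with a residual LoxP site in the following intron, and Dnm2 encodes the large GTPase dynamin 2, which cuts vesicles from membranes. Each library is the whole muscle of 1 animal, so that fewer cells of a type and less RNA per cell cannot be told apart. The description of Dnm2 +/K562E mouse 1 spells the mutation with another residue number than its title and genotype label, by which it was grouped. Without that mouse 3 members were higher and 2 lower, Dag1 being the added lower one. In the same setting 2651 of all 14120 tested genes were higher and 2634 lower. Sgca (-0.87), Sgcd (0.51), Sgce (0.52) and Sspn (0.41, all log2 fold changes) still passed the edgeR quasi-likelihood test there at an adjusted p under 0.05.

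The complex joins the actin cytoskeleton of the muscle fibre to the basement membrane. Dystrophin (Dmd), or its paralog utrophin (Utrn), binds actin inside the fibre and dystroglycan (Dag1) at the membrane, and the sugar chains of alpha-dystroglycan bind laminin outside. Sarcoglycans and sarcospan (Sspn) form a membrane subcomplex beside dystroglycan, while dystrobrevins, syntrophins and neuronal nitric oxide synthase attach inside. Loss of alpha-, beta- or delta-sarcoglycan, or of dystrophin, leaves the membrane fragile and causes muscular dystrophy. Epsilon-sarcoglycan (Sgce), the paralog of alpha-sarcoglycan (Sgca), is made in many tissues, and utrophin is widespread but concentrated at the neuromuscular junction of mature fibres.

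Of the 8 members, 3 were higher and 1 was lower in Dnm2 +/K562E soleus, and 4 did not pass the test (edgeR quasi-likelihood test, Benjamini-Hochberg adjusted p under 0.05 over all tested genes). Alpha-sarcoglycan fell 1.82-fold, delta-sarcoglycan (Sgcd), epsilon-sarcoglycan and sarcospan rose between 1.32-fold and 1.48-fold, and dystrophin, utrophin, dystroglycan and beta-sarcoglycan (Sgcb) had fitted differences of at most 1.13-fold, none of which passed. The 4 calls of 8 stand beside 43.8% of all tested genes, with 22.2% of all genes higher and 21.7% lower, so this share is near the background. Only Sgca also passed the fold change limit of 0.58 on the log2 scale, a limit that 20.7% of all genes passed, 12.9% as higher and 7.85% as lower. The median log2 fold change was 0.08 over the 8 members and 0.0074 over all tested genes.

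The start regions of the members that changed and of dystrophin are shown because they differ in base composition and because the count of a gene adds up all its start sites. RefSeq gave a region from 250 bases before to 50 bases after the start for 7 of the 8 members on GRCm38.p6, and none was given for Sgce. Capitals mark E-boxes (CANNTG, read on both strands), the letters bound by the myogenic factors and by many other helix-loop-helix proteins. The first Dmd sequence lies at the first start of the gene, and the second at an internal start 93.0% of the way along the gene. The Sgcd start, at 47379325, also lies inside its gene, which on the minus strand begins at 47988969.
Sgca, chr11:94976278-94976577, minus strand: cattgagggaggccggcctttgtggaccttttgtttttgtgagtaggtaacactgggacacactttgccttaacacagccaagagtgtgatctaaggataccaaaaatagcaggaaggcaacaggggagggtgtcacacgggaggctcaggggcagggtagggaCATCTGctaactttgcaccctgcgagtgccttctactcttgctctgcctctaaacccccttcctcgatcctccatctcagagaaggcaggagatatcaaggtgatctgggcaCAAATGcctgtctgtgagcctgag
Sgcd, chr11:47379276-47379575, minus strand: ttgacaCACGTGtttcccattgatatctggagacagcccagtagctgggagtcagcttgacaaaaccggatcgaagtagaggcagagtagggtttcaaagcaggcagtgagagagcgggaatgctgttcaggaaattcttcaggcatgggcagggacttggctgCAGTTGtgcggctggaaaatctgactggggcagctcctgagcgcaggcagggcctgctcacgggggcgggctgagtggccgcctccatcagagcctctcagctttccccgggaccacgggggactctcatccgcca
Sspn, chr6:145933872-145934171, plus strand: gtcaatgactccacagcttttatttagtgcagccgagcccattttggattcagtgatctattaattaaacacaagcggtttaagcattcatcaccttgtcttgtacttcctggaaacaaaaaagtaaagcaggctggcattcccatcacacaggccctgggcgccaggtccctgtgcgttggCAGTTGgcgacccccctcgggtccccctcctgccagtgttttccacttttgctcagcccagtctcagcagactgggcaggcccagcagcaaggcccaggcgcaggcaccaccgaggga
Dmd first start, chrX:82948620-82948919, plus strand: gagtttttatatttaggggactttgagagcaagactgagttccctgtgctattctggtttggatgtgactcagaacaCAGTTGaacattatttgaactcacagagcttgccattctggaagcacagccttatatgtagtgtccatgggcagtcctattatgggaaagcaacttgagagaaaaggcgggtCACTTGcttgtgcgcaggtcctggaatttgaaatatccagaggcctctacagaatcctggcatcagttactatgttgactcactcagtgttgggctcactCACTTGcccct
Dmd internal start, chrX:85048045-85048344, plus strand: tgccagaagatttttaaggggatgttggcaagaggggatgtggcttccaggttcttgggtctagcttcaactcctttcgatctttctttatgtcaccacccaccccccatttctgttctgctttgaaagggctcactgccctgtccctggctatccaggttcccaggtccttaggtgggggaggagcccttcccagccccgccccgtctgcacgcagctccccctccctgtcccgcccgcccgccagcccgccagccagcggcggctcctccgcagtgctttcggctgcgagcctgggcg
An E-box occurs in 72.3% of the 32851 promoters of this length. Sgca and Sgcd held 2 each, the Sspn region shown held 1 and the other Sspn start 0, the first Dmd start held 3, the internal Dmd start and Sgcb held 0, and Utrn held 7, a pair of which overlap by 4 bases. The first Dmd start also held 1 match each to the CArG box (in 1.63% of promoters), the MEF2 site (in 3.19%) and TATAAA (in 13.6%), all read on both strands, and the MEF2 and TATAAA matches share 5 bases. Sgcb held 1 TATAAA as well. An MCAT element, CATTCC, which 14.7% of promoters hold, was found in the Sgcd region and at both Sspn starts. The first Dmd start had 2 CpG pairs, Utrn 2, Sgca 4, the Sspn region shown 8 and the other Sspn start 2, Sgcd 12, the internal Dmd start 14, Sgcb 24 and the Dag1 starts 30 and 47, against a median of 7 over all promoters. These are descriptions of the letters in the windows and not binding sites.

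The cytoplasmic link was examined first. Dmd (chromosome X, 82948870 to 85206141, 84 merged exons) stood at 179, 164, 157 and 149.9 normalized CPM (counts scaled to library size with TMM factors) in controls 1 to 4 and at 193, 161, 177 and 204 in Dnm2 +/K562E mice 1 to 4. The highest 2 values were both from mutant mice, but mutant mice 2 and 3 lay within the control range. Controls averaged 162 ± 12.6 and Dnm2 +/K562E mice 184 ± 18.9 (SD, n = 4 each). The log2 fold change was 0.18 ± 0.08 (SE, 95% interval -0.0064 to 0.36), which did not pass the test (adjusted p = 0.108, edgeR quasi-likelihood test). It passed without control 1 (0.22, adjusted p = 0.0498) and without Dnm2 +/K562E mouse 2 (0.24, adjusted p = 0.0394, both same test), and with scaling by library size alone (0.39, adjusted p = 0.00177).

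Utrn (chromosome 10, 12382188 to 12869365) was at 139, 165, 162 and 148 normalized CPM in controls 1 to 4 and at 141, 157, 153 and 156 in Dnm2 +/K562E mice 1 to 4. All 4 mutant values fell between the lowest and the highest control. With means of 153 ± 12.3 (SD, n = 4) and 152 ± 7.40 (SD, n = 4), the log2 fold change was -0.015 ± 0.07 (SE, edgeR quasi-likelihood test, adjusted p = 0.878), with a 95% interval from -0.17 to 0.14. Scaling by library size alone turned this to 0.20 (adjusted p = 0.0280, same test), a setting that moved the median of all genes to 0.22. The counts add all annotated transcripts of a gene, 14 for Dmd and 13 for Utrn, so the short dystrophins and utrophins of other cells are included.

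Because a ratio of 2 genes within 1 library does not depend on scaling, paralogs were also compared as ratios of raw counts. There were between 0.774 and 1.03 Utrn counts per Dmd count in controls and between 0.727 and 0.98 in Dnm2 +/K562E mice. Control 1, with the lowest control ratio, lay among the mutant values. The log2 ratio averaged -0.084 ± 0.19 in controls and -0.27 ± 0.19 in Dnm2 +/K562E mice (SD, n = 4 each), a difference of -0.19 that was not larger than the spread (exact two-sided permutation test, p = 0.171, adjusted p = 0.171 over 3 ratios, 1 of which is not reported here). The smallest p that 4 against 4 mice allow is 0.0286.

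Dag1 (chromosome 9, 108204634 to 108263958), whose protein is cut into alpha- and beta-dystroglycan, had the highest CPM of the members. Its values were 397, 453, 448 and 431 normalized CPM in controls 1 to 4 and 420.1, 381, 389 and 351 in Dnm2 +/K562E mice 1 to 4. The 3 lowest values were from mutant mice, and mutant mouse 1 lay within the control range. The means were 432 ± 25.5 and 385 ± 28.3 (SD, n = 4 each), with a log2 fold change of -0.17 ± 0.07 (SE, edgeR quasi-likelihood test, adjusted p = 0.0773), short of the threshold. This call depended on single libraries and on the correction used: it passed without control 1 (-0.21, adjusted p = 0.0327), without Dnm2 +/K562E mouse 1 (-0.21, adjusted p = 0.0391) and when exon length and GC content were corrected for (-0.27, adjusted p = 0.0155, all same test), whereas with library size alone the value was 0.047.

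**Figure D1:**
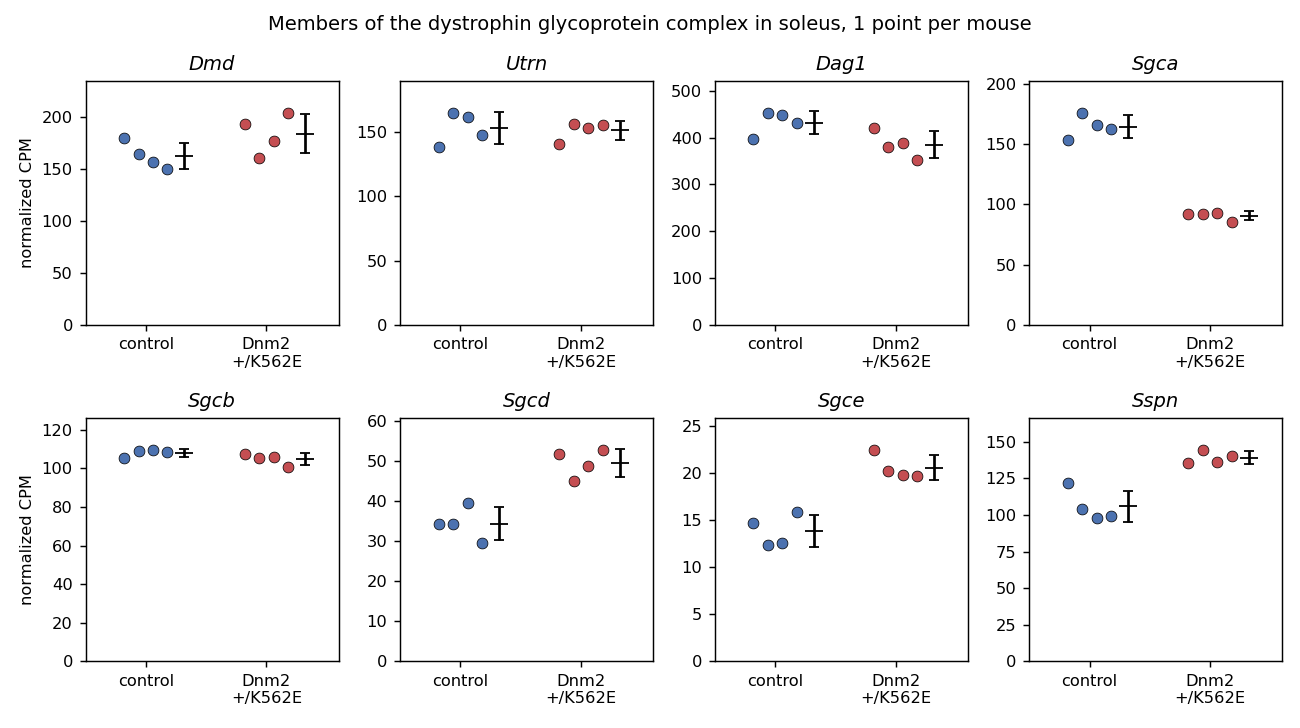
Normalized CPM (vertical axes, from 0) of the 8 member genes in each mouse, with controls in blue and Dnm2 +/K562E mice in red, mouse 1 to 4 from left to right, and the mean ± SD beside them. The genotypes do not overlap for Sgca, which is lower in Dnm2 +/K562E mice, nor for Sgcd, Sgce and Sspn, which are higher, and they overlap for Dmd, Utrn, Dag1 and Sgcb.

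Among the sarcoglycans, Sgca (chromosome 11, 94962791 to 94976327) changed most. It stood at 153, 176, 166 and 163 normalized CPM in controls 1 to 4 and at 91.8, 91.9, 93.0 and 85.0 in Dnm2 +/K562E mice 1 to 4. Every mutant mouse was below every control. The mean fell from 165 ± 9.47 to 90.4 ± 3.67 (SD, n = 4 each), a log2 fold change of -0.86 ± 0.06 (SE, edgeR quasi-likelihood test, adjusted p = 2.37e-06), and it stayed between -0.93 and -0.65 under all 17 alternatives. Of 10 muscle markers 8 were lower too, beside 21.7% of all tested genes, a co-occurrence whose part was not tested.

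Sgcb (chromosome 5, 73632749 to 73647790), the beta subunit, did not pass the test. It was at 105, 109, 109.8 and 108 normalized CPM in controls 1 to 4 and at 108, 106, 106 and 101 in Dnm2 +/K562E mice 1 to 4, and in both genotypes it varied least among the members relative to its mean. The log2 fold change was -0.044 ± 0.05 (SE, edgeR quasi-likelihood test, adjusted p = 0.516), with a 95% interval from -0.16 to 0.07, and library size alone turned it to 0.17 (adjusted p = 0.0312, same test).

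Sgcd (chromosome 11, 46896253 to 47988969), the delta subunit, rose. It was at 34.2, 34.2, 39.5 and 29.5 normalized CPM in controls 1 to 4 and at 51.6, 45.0, 48.7 and 52.8 in Dnm2 +/K562E mice 1 to 4, with every mutant mouse above every control. The mean rose from 34.4 ± 4.08 to 49.5 ± 3.50 (SD, n = 4 each), a log2 fold change of 0.53 ± 0.09 (SE, edgeR quasi-likelihood test, adjusted p = 0.000863).

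Sgce (chromosome 6, 4674350 to 4747207) was the least abundant member, at 14.7, 12.4, 12.5 and 15.9 normalized CPM in controls 1 to 4 and at 22.5, 20.2, 19.8 and 19.6 in Dnm2 +/K562E mice 1 to 4. The groups did not overlap. The mean rose from 13.9 ± 1.69 to 20.6 ± 1.33 (SD, n = 4 each), with a log2 fold change of 0.57 ± 0.10 (SE, edgeR quasi-likelihood test, adjusted p = 0.000786). As its paralog Sgca fell, the count ratio of Sgce to Sgca moved from between 0.0705 and 0.0976 in controls to between 0.213 and 0.245 in Dnm2 +/K562E mice. On the log2 scale this was a rise of 1.44, from -3.57 ± 0.24 to -2.14 ± 0.088 (SD, n = 4 each, exact two-sided permutation test, p = 0.0286, adjusted p = 0.0429 over 3 ratios), or 2.70-fold. This p is the smallest that 4 against 4 mice allow. Every mutant mouse was above every control for Sgce and below every control for Sgca. The ratios therefore could not overlap, and their test adds nothing to the results of the genes.

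**Figure D2:**
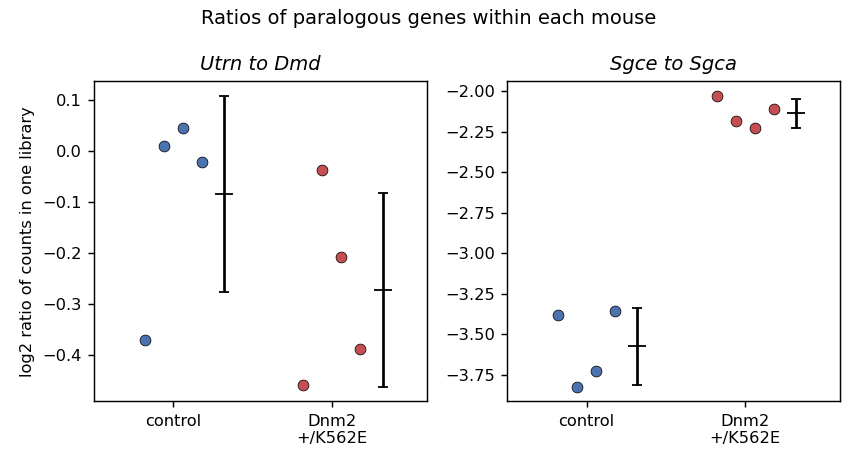
Log2 ratio of the raw counts of paralogous genes within each library (vertical axes, each with its own range), controls in blue and Dnm2 +/K562E mice in red, with the mean ± SD beside them. The ratio of Sgce to Sgca does not overlap between the genotypes, while for Utrn to Dmd control 1 (-0.37) lies among the Dnm2 +/K562E mice.

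Sspn (chromosome 6, 145931641 to 145965223), a tetraspanin-like protein of the sarcoglycan subcomplex, was at 122, 104, 98.2 and 99.7 normalized CPM in controls 1 to 4 and at 135, 145, 136 and 140.4 in Dnm2 +/K562E mice 1 to 4. Control 1 was the highest control and still below every mutant mouse. The mean rose from 106 ± 10.8 to 139 ± 4.28 (SD, n = 4 each), a log2 fold change of 0.40 ± 0.07 (SE, edgeR quasi-likelihood test, adjusted p = 0.00136). The 4 members that passed the test were the same 4 that did not overlap between the genotypes, which 41.2% of all tested genes did not.

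Levels of different genes were compared per kilobase of merged annotated exons, which overstates the length of any one transcript where a gene has many starts and ends, as Dmd does (23.801 kb). In controls the order of the members was Sgca (94.8 ± 5.46 normalized CPM per kb), Dag1 (68.0 ± 4.01), Sgcb (26.7 ± 0.510), Sspn (21.2 ± 2.17), Utrn (8.96 ± 0.719), Dmd (6.82 ± 0.530), Sgcd (4.16 ± 0.494) and Sgce (1.31 ± 0.160, all SD, n = 4), and no neighbours in this order overlapped. In Dnm2 +/K562E mice Dag1 (60.6 ± 4.45) came before Sgca (52.1 ± 2.11) and Sspn (27.9 ± 0.857) before Sgcb (25.9 ± 0.751), without overlap of either pair. Utrn (8.87 ± 0.433) and Dmd (7.72 ± 0.794) could not be ordered there, since their ranges overlapped.

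Summed over the members Sgca, Sgcb, Sgcd and Sgce, the sarcoglycan level was 127 ± 5.88 normalized CPM per kb in controls and 85.9 ± 2.68 in Dnm2 +/K562E mice (SD, n = 4 each). The share of Sgca in this sum was 74.6% ± 0.910 in controls and 60.6% ± 0.785 in Dnm2 +/K562E mice. Sgcb made up 20.2% to 21.7% in controls and 29.9% to 30.2% in Dnm2 +/K562E mice. Sgcd made up 3.28% ± 0.384 and 6.99% ± 0.633, and Sgce 1.03% ± 0.161 and 2.25% ± 0.119 (all SD, n = 4), and for none of these 4 genes did the shares of the genotypes overlap. Sgca held most of this level per kb in all 8 mice, but the shares depend on exon length. Its merged exons span 1.735 kb, against 4.052 for Sgcb, 8.257 for Sgcd and 10.612 for Sgce. Without division by length, Sgcb (mean 104.9 normalized CPM) was above Sgca (90.4) in Dnm2 +/K562E mice. The shares are parts of a whole, so a lower Sgca share by itself raises the summed share of the other genes. Their lack of overlap therefore adds nothing to the results of the single genes. The Sgcb share rose while Sgcb itself did not pass the test (log2 fold change -0.044).

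**Figure D3:**
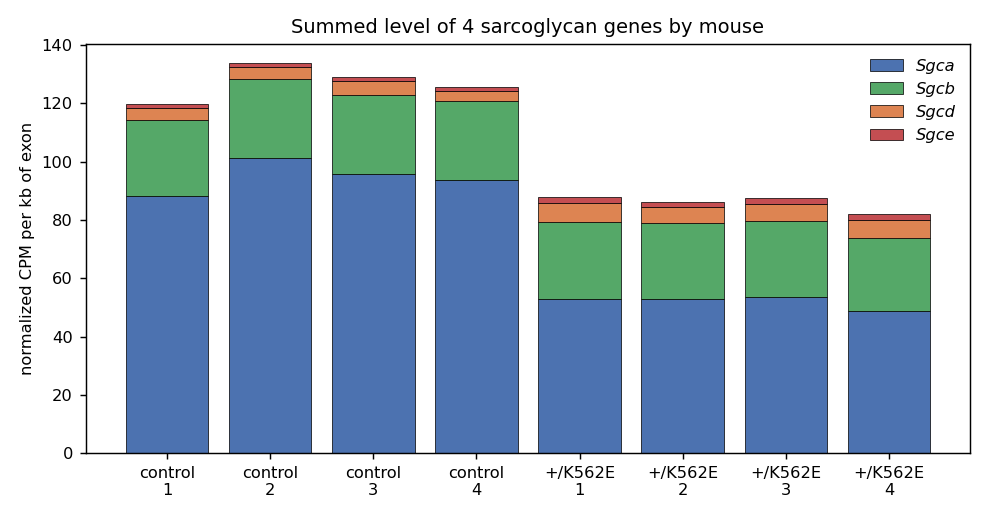
Normalized CPM per kb of exon (vertical axis, from 0) of 4 sarcoglycan genes stacked for each of the 8 mice. The stacks reach 119.7 to 134 in controls and 82.0 to 87.8 in Dnm2 +/K562E mice, and the Sgca segment is shorter in every Dnm2 +/K562E mouse.

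Of 46 further genes of the complex and its surroundings, listed by role, 42 were tested, of which 12 were higher, 12 were lower and 18 did not pass, beside 22.2% higher and 21.7% lower among all genes. With library size alone, 21 were higher and 5 lower, beside 5608 higher and 1504 lower of all 14001 tested genes in that setting. The cytoplasmic partners moved in both directions. Nos1, the nitric oxide synthase that the complex holds at the membrane, fell from 45.4 ± 9.57 to 21.1 ± 0.887 (SD, n = 4 each), with a log2 fold change of -1.10 ± 0.13 (SE, edgeR quasi-likelihood test, adjusted p = 6.25e-05), and controls spread widely, from 35.0 to 58.2.

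Of the dystrobrevins and syntrophins named here, Sntb2 and Dtnb were higher, while Dtna and Sntb1 did not pass. Not every tested gene of these families is reported here, so these calls give no share for the families. Among all tested genes 22.2% were higher and 21.7% lower. Sntb2, beta-2-syntrophin, rose from 11.3 ± 1.17 to 15.6 ± 0.715 normalized CPM (SD, n = 4 each, log2 fold change 0.46, adjusted p = 0.00195, edgeR quasi-likelihood test). Dtnb, beta-dystrobrevin, rose from 1.77 ± 0.553 to 3.51 ± 0.0510 (SD, n = 4 each, log2 fold change 1.00, adjusted p = 0.00522, same test) at a low level, and 6.68% of its 31-base stretches occur in other genes. Dtna, alpha-dystrobrevin, the muscle form, differed by -0.073 on the log2 scale (adjusted p = 0.328) and Sntb1, beta-1-syntrophin, by 0.067 (adjusted p = 0.749, both same test). Sgcz, Sntg1 and Sntg2 were too low to be tested, with 2 counts of Sgcz in Dnm2 +/K562E mouse 2 and 0 elsewhere, 1 to 19 counts of Sntg2 per library and 0 of Sntg1 in all 8 libraries, which allows up to 0.0672 to 0.0894 normalized CPM per library (3 counts, counting error only).

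**Figure D4:**
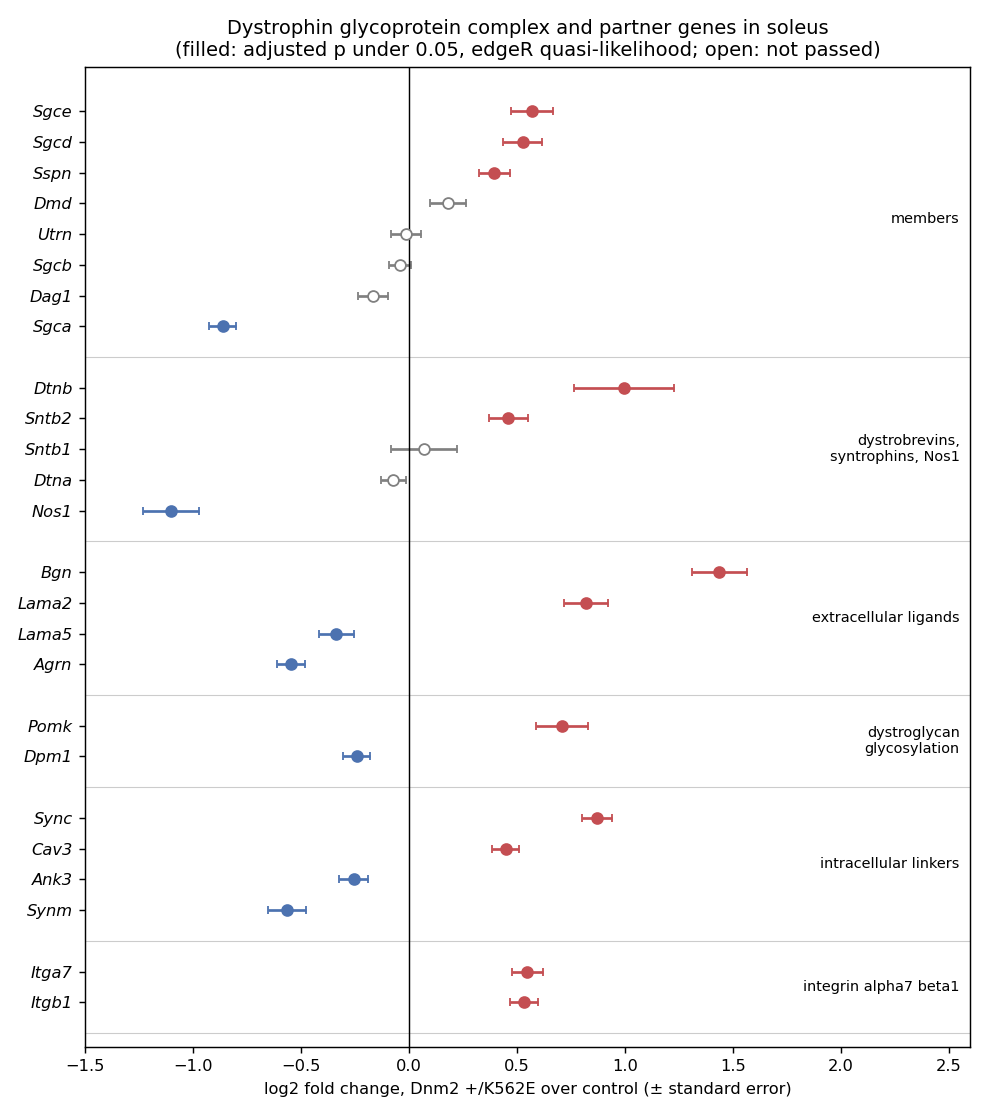
Log2 fold change of Dnm2 +/K562E over control (horizontal axis, ± standard error) for the 8 members and the named partner genes, with filled points for an adjusted p under 0.05 and red for higher, blue for lower. Sgca and Nos1 lie on the lower side and Sgcd, Sgce, Sspn, Sntb2 and Dtnb on the higher side. With library size alone Utrn, Sgcb, Dag1 and Dtna change sign.

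Outside the fibre, 5 of 9 ligand genes were higher and 2 lower, beside 22.2% and 21.7% of all tested genes. Bgn, the small proteoglycan biglycan that binds dystroglycan and sarcoglycans, rose from 294 ± 47.0 to 796 ± 113 normalized CPM (SD, n = 4 each, log2 fold change 1.44 ± 0.13 SE, adjusted p = 9.34e-06, edgeR quasi-likelihood test). The chains of laminin-211, the main dystroglycan ligand of muscle, are encoded by Lama2 (log2 fold change 0.82, adjusted p = 0.000102), Lamb1 (0.50) and Lamc1 (0.41). Lamb2 was at 0.15, and these last 3 are named after their values were seen. Agrin (Agrn), which organizes the neuromuscular junction, fell by 0.55 on the log2 scale (adjusted p = 6.05e-05) and Lama5 by 0.34 (adjusted p = 0.00703, all same test), but Lama5 did not pass with library size alone (-0.12, adjusted p = 0.205, same test). All 9 fibroblast markers, genes of cells that make matrix, were higher as well, and their part in these values was not tested.

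The enzymes that build the laminin-binding sugars of alpha-dystroglycan formed the longest partner list. Of 17 tested, 12 did not pass, 1 was higher and 4 were lower, beside 22.2% higher and 21.7% lower among all tested genes. The share of lower enzymes was near that background. The kinase Pomk rose from 8.38 ± 1.32 to 13.7 ± 1.08 normalized CPM (SD, n = 4 each, log2 fold change 0.71, adjusted p = 0.000814, edgeR quasi-likelihood test). Dpm1, a subunit of the dolichol phosphate mannose synthase, was lower, at -0.24 on the log2 scale (adjusted p = 0.00946). Dolk (-0.26) and Pomgnt1 (-0.22, adjusted p = 0.0472, all same test) were lower too and are named after their values were seen. With library size alone Dpm1 (-0.031) did not pass.

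Among the linkers inside the fibre, Sync, which joins dystrobrevin to desmin, rose from 38.7 ± 2.83 to 70.8 ± 3.22 normalized CPM (SD, n = 4 each, log2 fold change 0.87, adjusted p = 4.41e-06, edgeR quasi-likelihood test). Cav3, the muscle caveolin, which binds beta-dystroglycan, rose by 0.45 on the log2 scale (adjusted p = 0.000193). Synm, the intermediate filament protein synemin, fell by 0.57 (adjusted p = 0.000369) and Ank3, which encodes an ankyrin, fell by 0.26 (adjusted p = 0.00996, all same test). Ank3 did not pass with library size alone (-0.044). Plec (-0.23), named after its value was seen, was the other lower gene. Of the 7 linkers 2 were higher and 3 lower, beside 22.2% higher and 21.7% lower among all tested genes. Itga7 and Itgb1, the subunits of the alpha7 beta1 integrin, the other laminin receptor of the fibre, rose by 0.55 and 0.53 (adjusted p = 0.000142 and 8.43e-05, same test).

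Genes with the most similar profile over the 8 mice were sought for the paralogs Dmd and Utrn, by the root mean square difference of log2 CPM centred at the control mean. Nearest to Dmd were Prmt3 (0.0469), Ncl (0.0543), Lmbrd2 (0.0563), Pex13 (0.0567) and Sec62 (0.0571). Nearest to Utrn were Pebp1 (0.0312), Vapb (0.0330), Gng11 (0.0432), Ntn4 (0.0449) and Fam43a (0.0449). These are the closest of all tested genes, and neither Dmd nor Utrn passed the test. The log2 fold changes of the nearest genes were 0.16 to 0.20 for Dmd and -0.032 to 0.014 for Utrn. Shared regulation was not tested.

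Marker genes of the cell types in soleus also differed between the genotypes, and their part in the values above was not tested. The muscle markers were present at high levels in all 8 libraries, with 8 of 10 lower and Des higher, and a summed level of 63323 to 69948 normalized CPM in controls and 43046 to 49225 in Dnm2 +/K562E mice. All 9 fibroblast markers were higher (sum 2533 to 3907 and 5539 to 7248), as were all 7 macrophage markers (72.8 to 135 and 179 to 296) and 7 of 8 markers of regenerating or denervated fibres (133 to 147 and 561 to 743). All 6 endothelial markers were lower (962 to 1026 and 692 to 774). Of 8 smooth muscle and pericyte markers, whose cells also use sarcoglycans, 6 were lower and 1 higher (1730.4 to 1892 and 1238 to 1463). Of 6 Schwann cell markers, 1 was lower (268 to 304 and 260.3 to 309), and of 5 endplate markers 4 were higher and 1 lower (74.8 to 92.3 and 149.9 to 166). None of these markers was at 0. Over all tested genes 22.2% were higher and 21.7% lower.

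Depth was 33407430 to 48832814 counts per library. The libraries of 1 genotype differed from each other beyond sampling noise (chi-square divided by its degrees of freedom at least 13.0 for every pair). Controls had TMM factors of 0.91 to 0.96 and Dnm2 +/K562E mice of 1.04 to 1.10, so scaling moves the genotypes against each other. Total Dnm2, which adds both alleles and so does not check the genotype, was 66.3 ± 4.74 and 73.4 ± 2.43 normalized CPM (SD, n = 4 each, adjusted p = 0.0909, edgeR quasi-likelihood test).

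**Figure D5:**
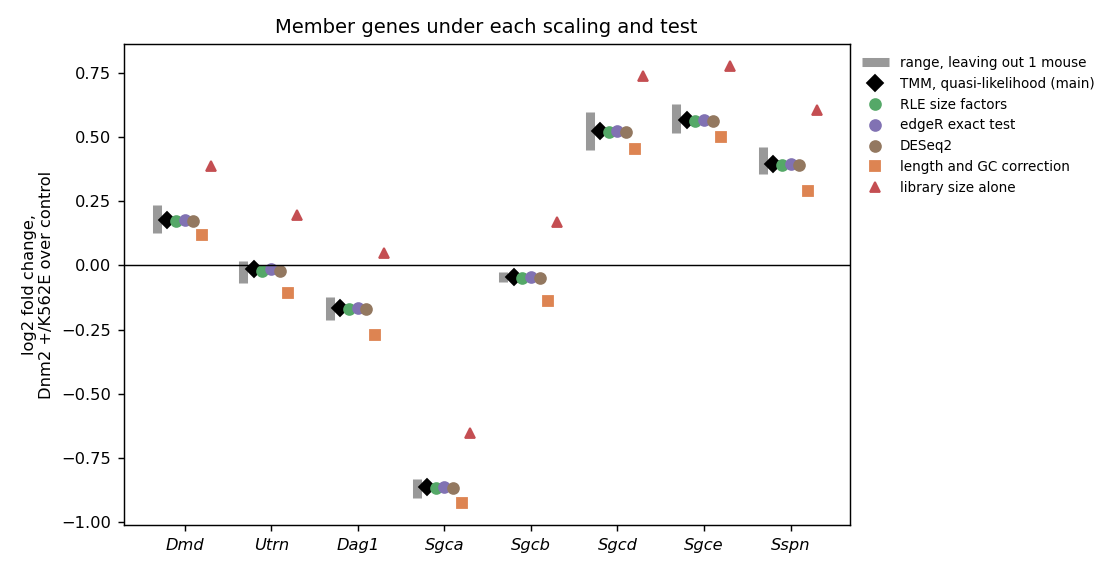
Log2 fold change of Dnm2 +/K562E over control (vertical axis) of the 8 members by scaling and test, with grey bars for the range when 1 mouse is left out. Sgca stays below 0 and Sgcd, Sgce and Sspn above 0 under each setting drawn, whereas Utrn, Dag1 and Sgcb are below 0 in the main comparison and above 0 with library size alone.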

How the data were processed

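Soleus RNA from 4 control and 4 Dnm2 +/K562E mice was sequenced, and the authors deposited raw read counts per gene and mouse, without normalization. They trimmed reads with Trimmomatic 0.33, aligned them with STAR 2.5.1b to GRCm38 with Ensembl genes and counted them with featureCounts. Reads of low mapping quality were left out, multi-mapping reads were counted at their primary alignment, and reads shared by overlapping genes were assigned to all of them. The paper's methods describe poly A enrichment and the labels a stranded total RNA kit, and use of the strand in counting was not given in the sources used here.

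Groups and mouse numbers came from the sample titles. Of 22880 gene IDs, 22647 matched GENCODE M21 on the same build, which gave symbols, positions and exon lengths. With edgeR 4.0.16 in R 4.3.3, filterByExpr (minimum count 10, minimum total 15), TMM factors and the quasi-likelihood F-test were fitted on the whole table, with Benjamini-Hochberg adjustment over 14001 genes. Standard errors (SE) were derived from the F statistics. Log2 CPM used a prior count of 2. The fitting was also run on simulated counts in which few genes were changed, equally in both directions. That setting cannot test the scaling where as many genes differ as here. Ratios were tested by exact permutation over mice. Mouse numbers were not used to pair animals in the main test. The mean correlation of deviations between mice sharing a number was -0.11 by titles and -0.03 by descriptions. Single pairs ran from -0.213 to 0.178, and so few pairs cannot exclude a pairing. Each p-value sets a difference between the genotypes against the variation between these animals, and is not itself a measure of spread.

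The members, lists and tests were chosen with earlier results of these data known. The text names the 8 members, Dnm2, the remaining sarcoglycans, dystrobrevins, syntrophins and Nos1, the 2 genes with the smallest p in each direction of the other partner lists, and the 5 nearest profiles of Dmd and of Utrn, and says where a gene was added after its value was seen. Some genes that this rule names, and 1 of 3 ratios, are not reported here. Shared 31-base stretches were looked up in GENCODE transcripts. Alternatives were RLE factors, library size alone, the edgeR exact test (the test of the paper's methods), DESeq2 1.42.0, other low-count filters, replicate blocks, a length and GC correction (mgcv 1.9.3), 10 counts added to both genes of a ratio, and leaving out each mouse.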

Additional observations from a re-analysis of the deposited data

Results flagged for a closer look

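In 2 of the 54 groups of 4 mice examined, 1 mouse stood apart from the other 3 by more than Dixon's 95% critical value, where chance gives about 1 in 20 groups. Sgca in Dnm2 +/K562E mouse 4 was at 85.0 normalized CPM, below the other mutant mice at 91.8 to 93.0 and so farther from the controls. The log2 ratio of Utrn to Dmd in control 1 was -0.37, below the other controls at -0.022 to 0.046. Without control 1 the difference of that ratio between genotypes was -0.28 (exact two-sided permutation test, p = 0.0571).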

How the results depend on the processing

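Sgca, Sgcd, Sgce and Sspn kept their direction and their adjusted p under 0.05 in all 17 alternatives, and of the 268 alternative values of members, counts and ratios 248 kept direction and side of the threshold, or the count within 1.5 times. With library size alone, which moved the median of all genes to 0.22, Dmd was 0.39, and Utrn 0.20, Dag1 0.047, Sgcb 0.17 and Dtna 0.14 were reversed. The same setting gave 6 members higher, 21 partner genes higher and 5 lower, and 5608 of all genes higher and 1504 lower, against 3103 and 3036. The length and GC correction moved the median of all genes to -0.081, with 2492 higher and 3938 lower, made Dag1 -0.27 (2 members lower) and reversed Sntb1 (-0.038). The cause of these shifts was not tested. When each mouse was left out, Dmd ran from 0.13 to 0.24, Utrn from -0.068 to 0.019, Dag1 from -0.21 to -0.12, Sntb1 from -0.039 to 0.18, Sgca from -0.91 to -0.83, members lower from 1 to 2 and members higher from 3 to 4. Beside this, 2651 to 3225 of all tested genes were higher and 2629 to 3172 lower. Dag1 became a lower call without control 1 or Dnm2 +/K562E mouse 1, and Dmd a higher call without control 1 or Dnm2 +/K562E mouse 2. Utrn was reversed without control 2 (0.018), without control 3 (0.0091) and without Dnm2 +/K562E mouse 1 (0.019), and Sntb1 without control 3 (-0.0068) and without Dnm2 +/K562E mouse 3 (-0.039). With the replicate block from the title numbers, whose mice are different animals, Dmd was 0.18, Utrn -0.013, Dag1 -0.17, Sgca -0.86, Sgcb -0.044, Sgcd 0.53, Sgce 0.57 and Sspn 0.40, 3 members were higher and 1 lower, and 2608 of all genes were higher and 2523 lower. Neither block changed the call of a member. In a paired comparison of the ratios the smallest p that 4 pairs allow is 0.125. Counts add all transcripts of a gene and give no protein amounts.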
